A study of Homo sapiens with 6 samples.

Results

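The IL6 family comprises cytokines most of which signal through receptor complexes built around 1 shared chain, IL6ST. It was described here through 10 genes picked by symbol, namely the ligands IL6, IL11, LIF and CNTF, the receptor chains IL6R, IL6ST, LIFR and OSMR, the transcription factor STAT3 and the feedback inhibitor SOCS3. They are 10 of the 62754 rows of the deposited count table, and all 10 were among the 19874 genes that passed a filter on low counts and were tested. HK-2 cells, an immortalised line from human proximal tubule epithelium, were exposed to Cisplatin, a platinum drug that injures renal tubules, in 2 groups that differed in the siRNA they received, a negative control (CP+siNC) or one directed at the RNA acetyltransferase NAT10 (CP+siNAT10). Both groups therefore received the drug, which the study's methods set at 20 μM for 24 hours for work in these cells, and no library without Cisplatin was compared. The mRNA of 3 libraries per group was sequenced, with totals of 19321665, 21602988 and 19464027 counts in CP+siNC and 20793709, 21531774 and 25192736 counts in CP+siNAT10. Nothing in the labels says that the 3 libraries of a group came from separate cultures, so p-values measure the spread between these libraries, which may be technical. That spread was small, with a common coefficient of variation beyond counting error of 3.00% in edgeR. Small differences can therefore reach low p-values.

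Most ligands of this family bind a ligand-specific receptor chain and recruit IL6ST, whose associated Janus kinases JAK1, JAK2 and TYK2 phosphorylate STAT3. STAT3 activates, among others, the gene of SOCS3, which binds the receptor complex and ends the signal. IL6 is a well-known product of injured and senescent epithelial cells, and in the kidney the family takes part in both inflammation and tubular repair.

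The cells were first checked against markers of their label. Of 23 kidney epithelial markers, 19 to 22 had a count in each library, and their levels summed to between 2612 and 2752 CPM, the count relative to the library total as scaled by the TMM method. KRT8, an epithelial keratin, was the most abundant of them at 1430 to 1471 CPM. Epithelial KRT18 and the renal transcription factor PAX8 were present in every library. Of the 15 tested markers 5 were higher and 4 lower in CP+siNAT10 (60% called, meaning an adjusted p under 0.05 in edgeR, beside 44.1% of all tested genes), with a median log2 fold change (CP+siNAT10 minus CP+siNC) of -0.0038, and they included PAX8 (0.59), SLC5A2 (0.31) and the adhesion molecule EPCAM (0.31) among the higher and KRT18 (-0.36) and the brush border enzyme GGT1 (-0.28) among the lower. The differentiated proximal tubule was represented less well: the endocytic receptors LRP2 and CUBN and the phosphate transporter SLC34A1 had 0 to 8 counts per library, with LRP2 at 0 in 3 of them, and the glucose transporter SLC5A2 had 8.31 to 11.7 CPM. A pair of further genes of the list, named after their values were seen, were the epithelial cadherin CDH1, with 0 to 2 counts per library, and VIM, the mesenchymal filament protein vimentin, which at 391 to 454 CPM made up a large part of the sum. The line therefore carried keratins and renal transcripts but lacked CDH1 and part of the transcripts of a mature proximal tubule.

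Markers of other cells were low apart from a few genes. Leukocyte markers summed to 202 to 220 CPM in CP+siNC and 270 to 292 CPM in CP+siNAT10, and nearly all of this was CD68, a lysosomal protein that epithelial cells also make. Without CD68, the other 9 leukocyte markers summed to 4.70 to 6.86 CPM. The defining leukocyte markers PTPRC and CD14 had 7 to 29 and 14 to 33 counts per library. The 7 fibroblast markers summed to 21.9 to 30.2 CPM, with COL1A1 the most abundant on average at 10.02 to 15.4 CPM. LUM, named after its values were seen, exceeded it in all 3 CP+siNC libraries at 10.99 to 11.5 CPM and was at 9.83 to 13.7 CPM in CP+siNAT10, and the defining PDGFRB had 2 to 8 counts. The 6 endothelial markers summed to 0.159 to 0.561 CPM, with PECAM1 the most abundant on average at 1 to 7 counts and CDH5 at 0 counts in 2 libraries. Of the tested markers, 2 of 4 leukocyte genes (CD68 and PTPRC) and 1 of 3 fibroblast genes (COL1A1) were higher in CP+siNAT10, and none was lower, while of all tested genes 21.8% were higher and 22.3% lower. PTPRC reached 10 counts in 3 libraries only through CP+siNAT10, the group in which it was high, so it is given as a value only, and without it 1 of 3 leukocyte genes was higher. The call of PTPRC was lost without any 1 of the 3 CP+siNC libraries and without CP+siNAT10 replicate 2, which held the 29 counts and without which its log2 fold change was 0.46 in place of 0.96. The part of other cells in the family's results was not tested.

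NAT10 itself was measured first. Its level was 75.8, 71.4 and 73.2 CPM in the 3 CP+siNC libraries and 41.3, 40.5 and 42.4 CPM in the 3 CP+siNAT10 libraries. Every library thus fitted its label, and the groups did not overlap. The log2 fold change, was -0.82 ± 0.043 (SE, n = 3 per group), which left 56.5% of the control level (adjusted p = 2.79e-15, edgeR's quasi-likelihood test, adjusted over the 19874 tested genes by the Benjamini-Hochberg method). As in any bulk sample, fewer cells that express a gene and less RNA per cell cannot be told apart.

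Of the 10 family members, 8 had an adjusted p under 0.05 in edgeR's quasi-likelihood test, and among all tested genes 44.1% did. CNTF is 1 of the 8, but it reached 10 counts only in CP+siNC, so it passed the filter only through the group in which it was high, and its call is not used as support. Without it 7 of 9 members passed. IL6R, OSMR and SOCS3 were higher in CP+siNAT10, 3 of 10 against 21.8% of all tested genes. IL6, IL6ST, IL11, CNTF and STAT3 were lower, 5 of 10 against 22.3%, or 4 of 9 without CNTF. A log2 fold change over 1 in size as well was found for IL6R and CNTF, 2 of 10 against 2.33%, or for IL6R alone, 1 of 9, without CNTF. The groups did not overlap for the same 8 members, while 51.4% of all tested genes had groups that did not overlap. CNTF and SOCS3 lost the call when single libraries were left out, and 6 members passed without CP+siNC replicate 1, without CP+siNAT10 replicate 1 or without CP+siNAT10 replicate 3. With so many genes past the threshold, the count alone says little about the family, and the members differed mainly in the size and direction of their change. The median log2 fold change was -0.087 over the 10 members, -0.034 without CNTF and 0.0070 over all tested genes.

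**Figure D1:**
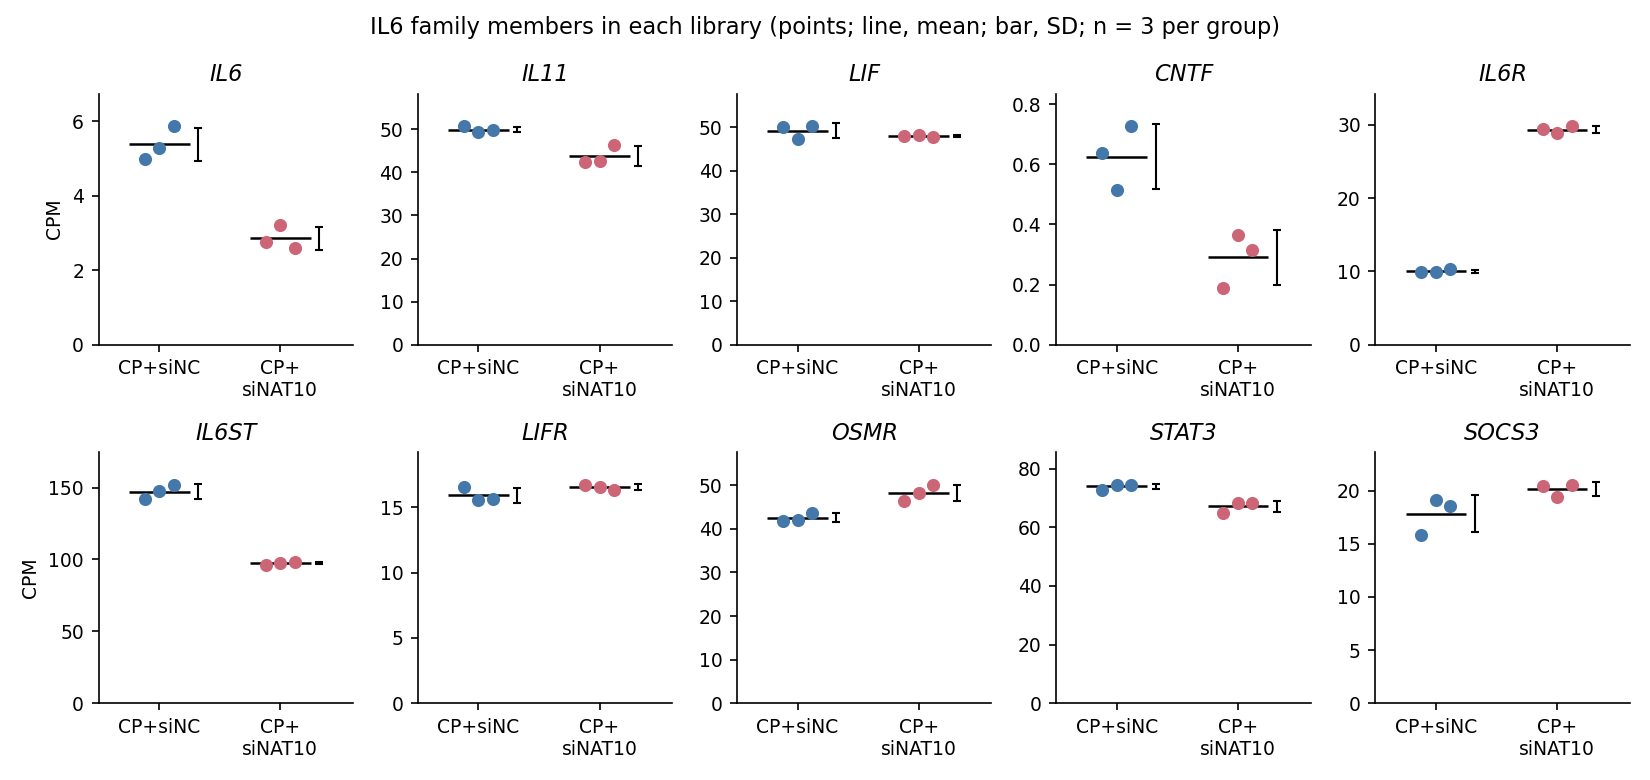
Level of each of the 10 members in CPM (vertical axes, each from 0) in the 3 CP+siNC libraries (blue) and the 3 CP+siNAT10 libraries (red), with the mean as a line and the SD as a bar beside it. IL6R stood at 9.90 to 10.3 CPM in CP+siNC and 28.8 to 29.8 CPM in CP+siNAT10, IL6 and IL6ST were lower in all 3 CP+siNAT10 libraries, and LIF and LIFR overlapped between the groups.

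Among the ligands, IL6 showed the clearest fall. IL6 (ENSG00000136244, chr7:22725884-22732002 on GRCh38, plus strand) encodes a cytokine that drives fever, the acute-phase response and inflammation. It had 94, 113 and 113 counts in CP+siNC and 58, 70 and 66 counts in CP+siNAT10. This corresponded to 4.99, 5.28 and 5.87 CPM against 2.75, 3.20 and 2.60 CPM. All 3 CP+siNAT10 libraries lay below the lowest CP+siNC library. The log2 fold change was -0.92 ± 0.133 (SE; 95% confidence interval -1.19 to -0.65), so that 52.9% of the control level was left (adjusted p = 1.53e-06, edgeR's quasi-likelihood test). Of the 19874 tested genes, 364 (1.83%) had a log2 fold change lower than that of IL6.

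The promoter of IL6 is shown because transcription of this gene is classically driven by NF-kappaB and AP-1, whose genes were among those measured. Sequences ran from 250 bases before to 50 bases after the start annotated in RefSeq on GRCh38.p14. That start can differ from the start of the counted row, as it does for IL6 and IL6R. Of the 10 members 9 had an entry, with 12 windows in all. LIF had none. Capitals mark the letters GGNNTTTCC, a kappaB-like pattern, searched on both strands. Of 35116 windows of this length, 6.26% held it. IL6 was the only member with such a match, and it began 72 bases before the start in the window chr7:22726950-22727249 (plus strand):
IL6: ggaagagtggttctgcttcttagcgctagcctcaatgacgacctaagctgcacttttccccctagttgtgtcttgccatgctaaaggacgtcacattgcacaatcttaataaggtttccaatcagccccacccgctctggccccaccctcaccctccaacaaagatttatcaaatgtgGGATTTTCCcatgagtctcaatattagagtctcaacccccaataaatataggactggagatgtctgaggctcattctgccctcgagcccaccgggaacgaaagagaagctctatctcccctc
This window lies inside the range of the counted IL6 row, which begins at chr7:22725884. The match is a description of the letters in this window and gives no measure of binding.

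Of the other ligands, IL11 moved less than IL6, and LIF did not move measurably. IL11, a cytokine of stromal and epithelial cells that signals through IL11RA and IL6ST, had 50.7, 49.4 and 49.8 CPM in CP+siNC and 42.3, 42.6 and 46.5 CPM in CP+siNAT10. The groups did not overlap, and the fall was small, with a log2 fold change of -0.19 ± 0.046 (SE; adjusted p = 1.48e-03, edgeR). LIF, which acts through LIFR and IL6ST and maintains stem cells, had 50.1, 47.2 and 50.3 CPM against 48.0, 48.3 and 47.8 CPM. The LIF values overlapped, and the log2 fold change of -0.034, which became 0.0036 when libraries were scaled by their size only, had a 95% confidence interval from -0.12 to 0.056 (adjusted p = 0.563, edgeR). That interval did not reach the log2 fold change of IL6 or IL11, but it overlapped the 95% confidence interval of IL11 (-0.28 to -0.092). Whether LIF and IL11 differed in their change was not tested.

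CNTF, a ligand known from nerve cells, was near the limit of detection. It had 12, 11 and 14 counts in CP+siNC and 4, 8 and 8 counts in CP+siNAT10, or 0.637, 0.514 and 0.727 CPM against 0.190, 0.366 and 0.316 CPM. At least 10 counts were reached only in the 3 CP+siNC libraries. Its log2 fold change of -1.07 ± 0.385 (SE; adjusted p = 0.0245, edgeR) is therefore given as a value only. The call was lost with DESeq2 (adjusted p = 0.124, the highest of 13 alternatives, the lowest being 0.0221) and without CP+siNC replicate 1 (log2 fold change -1.06) or 3 (-0.96) or CP+siNAT10 replicate 1 (-0.86) or 3 (-1.14). A read-through row, ZFP91-CNTF, shared 38.6% of the exon bases of CNTF in GENCODE 29 and held 2626 to 3763 counts per library, and ZFP91 itself held 3551 to 5014. Both were slightly higher in CP+siNAT10, with log2 fold changes of 0.11 (adjusted p = 0.0101, edgeR) and 0.12 (adjusted p = 4.47e-03, edgeR), the former a call lost without CP+siNC replicate 2 (0.087) or CP+siNAT10 replicate 2 (0.096). Of the exon bases of ZFP91-CNTF in GENCODE 29, 69.7% lay in ZFP91 and the other 30.3% in CNTF. The rows of ZFP91-CNTF and ZFP91 may therefore hold the same reads, and their rises are not separate results. How reads on shared bases were assigned is not given in the sources used here.

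Ligands and receptors outside the 10 members were taken from a list of 11 further genes, of which 6 were tested, 1 was higher and 1 was lower, or 33.3% called beside 44.1% of all tested genes. CLCF1, a ligand of the CNTF receptor, rose from between 10.6 and 11.5 CPM to between 13.9 and 14.99 CPM (log2 fold change 0.38 ± 0.075, SE; adjusted p = 1.44e-04, edgeR). OSM, the ligand of OSMR, had 1 to 3 counts per library, and CTF1, encoding cardiotrophin, had 0 or 1. Counts this low do not allow a comparison of the groups.

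**Figure D2:**
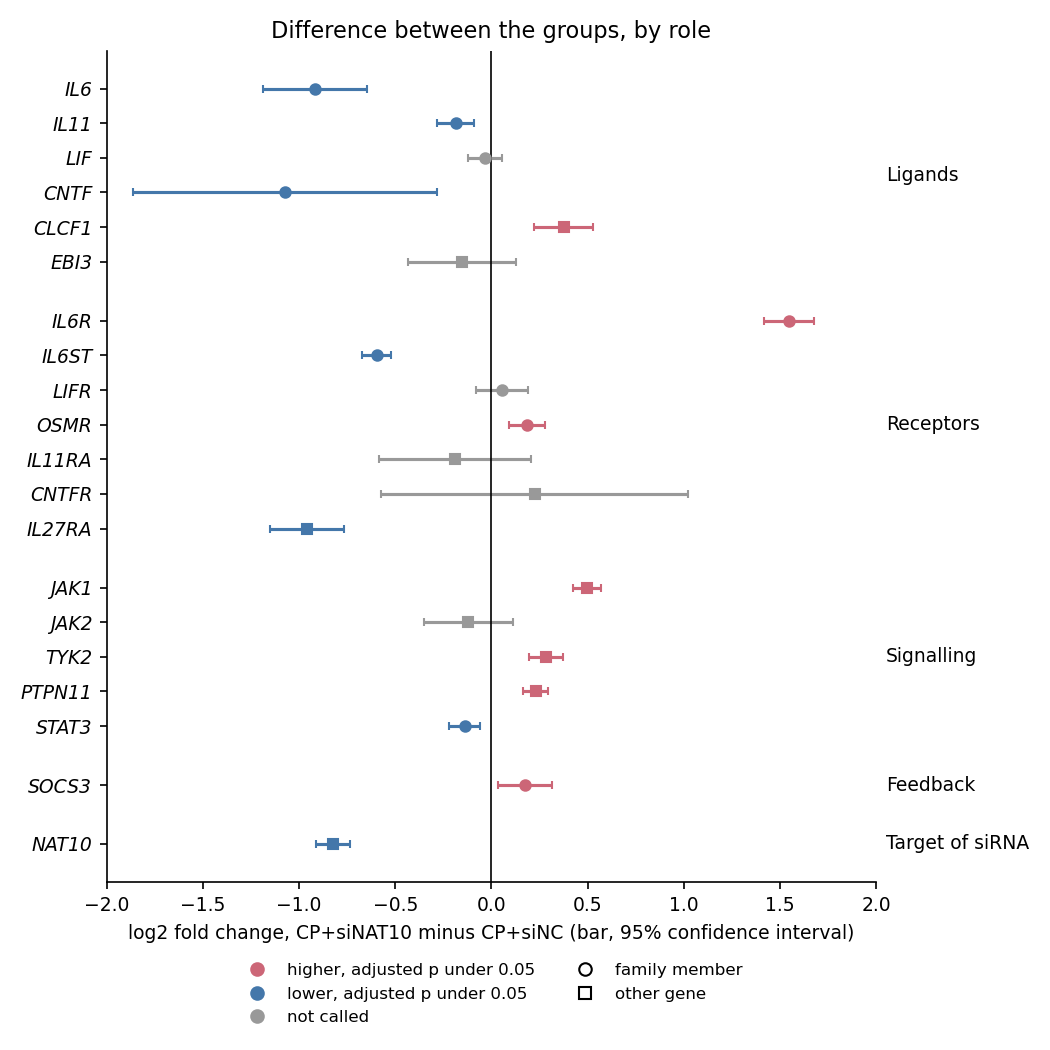
Log2 fold change of each gene with its 95% confidence interval (horizontal axis, CP+siNAT10 minus CP+siNC), grouped by role, with members as circles, other genes as squares and genes with an adjusted p under 0.05 in red (higher) or blue (lower). IL6R at 1.55 stood apart on the right, and IL6, CNTF and IL27RA lay farthest to the left.

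The receptors showed the largest contrast within the family. IL6R (ENSG00000160712, chr1:154405193-154466877, plus strand) encodes the chain that binds IL6 and that can also be shed or secreted to let IL6 act on cells without it. It had 187, 212 and 198 counts in CP+siNC and 618, 630 and 755 counts in CP+siNAT10. In CPM these were 9.93, 9.90 and 10.3 against 29.4, 28.8 and 29.8. The 3 libraries of each group lay within 1 CPM of each other, and the groups were far apart. IL6R was 2.92-fold higher in CP+siNAT10, with a log2 fold change of 1.55 ± 0.063 (SE; 95% confidence interval 1.42 to 1.68; adjusted p = 1.84e-17, edgeR's quasi-likelihood test). Only 23 of the 19874 tested genes (0.116%) had a higher log2 fold change.

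IL6ST (ENSG00000134352, chr5:55935095-55995012, minus strand) moved the opposite way. It had 2673, 3164 and 2926 counts in CP+siNC and 2029, 2132 and 2484 counts in CP+siNAT10. The levels were 142, 148 and 152 CPM against 96.4, 97.5 and 98.0 CPM. Every CP+siNAT10 library was below every CP+siNC library, and 66.1% of the control level was left (log2 fold change -0.60 ± 0.036, SE; adjusted p = 7.35e-14, edgeR). IL6ST is the signalling chain that IL6 and most other ligands of the family need. The transcripts of the IL6-binding chain and of the shared chain thus changed in opposite directions.

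The other 2 receptor chains changed little. OSMR, which pairs with IL6ST to bind oncostatin M, had 41.8, 42.1 and 43.8 CPM in CP+siNC and 46.5, 48.3 and 50.1 CPM in CP+siNAT10. The groups did not overlap, with a log2 fold change of 0.18 ± 0.046 (SE; adjusted p = 1.53e-03, edgeR). LIFR, which pairs with IL6ST to bind LIF, had 16.6, 15.6 and 15.6 CPM against 16.7, 16.6 and 16.3 CPM. The LIFR values overlapped, and its log2 fold change of 0.054 had a 95% confidence interval from -0.081 to 0.19 (adjusted p = 0.539, edgeR).

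Of the receptor chains outside the 10 members, IL27RA, which pairs with IL6ST to bind interleukin 27, fell from between 13.2 and 13.6 CPM to between 6.03 and 7.93 CPM (log2 fold change -0.96 ± 0.093, SE; adjusted p = 1.31e-09, edgeR). IL11RA, the specific chain for IL11, was at 1.82 to 2.71 CPM and 1.71 to 1.93 CPM and was not called (adjusted p = 0.461, edgeR), with the highest value in CP+siNC replicate 1. CNTFR had 5 to 16 counts per library and was not called either (adjusted p = 0.679, edgeR), and its depth would not show a moderate difference.

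Promoters of receptor and ligand genes were also searched for an AP-1-like pattern, TGANTCA, and a STAT-like pattern, TTCNNNGAA, on both strands. Of all 35116 windows, 7.71% held the first and 7.66% the second. IL6R, OSMR, CNTF and IL11 held the AP-1-like letters, and only LIFR held the STAT-like letters, in 2 of its 3 windows. The windows of IL6R (chr1:154405093-154405392, plus strand) and of IL11 (chr19:55370414-55370713, minus strand) are shown because these genes moved in opposite directions while both held TGAGTCA, in capitals:
IL6R: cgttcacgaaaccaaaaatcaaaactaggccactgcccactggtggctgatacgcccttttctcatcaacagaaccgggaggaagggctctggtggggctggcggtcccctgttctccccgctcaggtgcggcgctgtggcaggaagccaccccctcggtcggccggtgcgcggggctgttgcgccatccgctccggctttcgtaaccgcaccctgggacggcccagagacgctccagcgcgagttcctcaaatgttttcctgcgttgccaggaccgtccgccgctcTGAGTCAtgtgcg
IL11: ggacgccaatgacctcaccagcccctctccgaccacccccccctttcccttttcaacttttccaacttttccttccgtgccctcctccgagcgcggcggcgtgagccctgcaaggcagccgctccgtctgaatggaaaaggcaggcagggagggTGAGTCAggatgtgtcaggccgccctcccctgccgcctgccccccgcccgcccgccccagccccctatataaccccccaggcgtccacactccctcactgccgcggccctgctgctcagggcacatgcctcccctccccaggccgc
In IL6R the letters began 37 bases after the start, and in IL11 they began 96 bases before it. This pair was picked after its values were seen, and the windows of OSMR and CNTF are not shown. The letters give no measure of binding, and their part in either change was not tested. The windows of IL6ST, STAT3 and SOCS3 held none of the 3 patterns, which says only that these letters were not in them.

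Levels of different genes were compared per length, as CPM per kb of the gene length in the deposited table. In CP+siNC, IL11 was highest at 18.7 ± 0.257 CPM per kb (SD, n = 3), followed by LIF at 12.7 ± 0.444 and IL6ST at 12.2 ± 0.415, which overlapped with each other. STAT3 at 6.59, SOCS3 at 6.52 and OSMR at 5.93 CPM per kb formed the next level, and their libraries overlapped from 1 gene to the next. IL6R followed at 1.44 ± 0.0301 CPM per kb. LIFR at 1.31 and IL6 at 1.24 CPM per kb overlapped, and CNTF was lowest at 0.329 CPM per kb. IL11 and LIF thus exceeded IL6 in transcript level, and IL11 lay above 86.0% of all tested genes in its mean level per length over the 6 libraries.

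In CP+siNAT10 the order by the table's lengths was different in the middle. IL11 at 16.4 and LIF at 12.4 CPM per kb were again highest, and IL6ST at 8.07 ± 0.0692 CPM per kb (SD, n = 3) was now separate from LIF. SOCS3 at 7.37, OSMR at 6.73 and STAT3 at 5.98 CPM per kb no longer overlapped with their neighbours. IL6R at 4.19 ± 0.0688 CPM per kb (SD, n = 3) stood next to STAT3 and well above LIFR at 1.36 CPM per kb. IL6 at 0.660 and CNTF at 0.153 CPM per kb were lowest. Annotated lengths set part of this order, since the table gives IL6 4321 bases where the exons of GENCODE 29 cover 2069, and with the latter IL6 in CP+siNC would be at 2.60 CPM per kb, above IL6R and LIFR. With the GENCODE 29 lengths IL6ST would be above LIF in CP+siNC (15.8 against 12.4 CPM per kb), and STAT3, SOCS3 and OSMR would keep that order in both groups, so their change of order rests on the table's lengths.

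**Figure D3:**
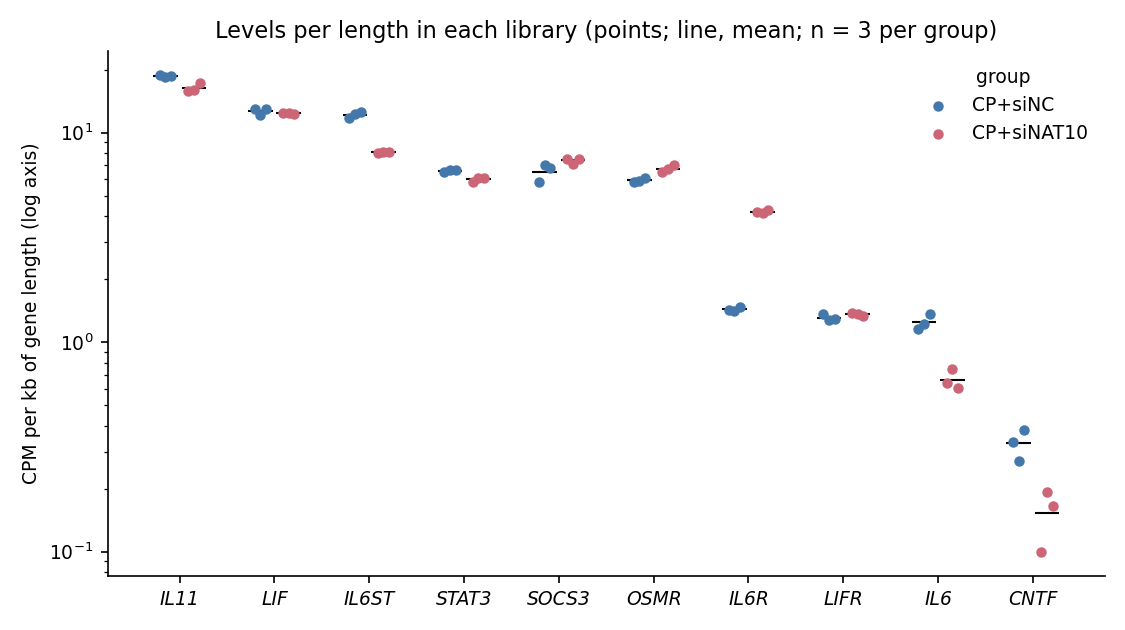
CPM per kb of gene length (log axis) of each member in the 3 CP+siNC libraries (blue) and the 3 CP+siNAT10 libraries (red), with the mean of each group as a line, in the order of CP+siNC. IL11 was highest and CNTF lowest in both groups, and IL6R rose from 1.44 to 4.19 CPM per kb.

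The balance of receptor transcripts was followed as the ratio of levels per length within each library, which no scaling of library totals can change. IL6R to IL6ST was 0.121, 0.116 and 0.117 in CP+siNC and 0.525, 0.510 and 0.524 in CP+siNAT10. The mean ratio was 4.42-fold higher in CP+siNAT10, a difference far larger than the spread between libraries (SD 0.00267 and 0.00875, n = 3 each). OSMR to IL6ST went from 0.486 ± 0.00801 to 0.834 ± 0.0250 and LIFR to IL6ST from 0.107 ± 0.00735 to 0.168 ± 0.00358 (mean ± SD, n = 3), and neither overlapped between groups. LIFR to OSMR, at 0.221 ± 0.0119 and 0.202 ± 0.0103, overlapped. IL6ST transcripts thus remained more abundant per length than those of IL6R, OSMR and LIFR in all 6 libraries, with a smaller excess in CP+siNAT10. IL27RA was not part of these ratios, and its mean fell from 4.52 CPM per kb in CP+siNC to 2.31 in CP+siNAT10. The ratios are of transcripts and were not tested as ratios, and with 3 libraries against 3 an exact permutation test could not go below 0.10.

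**Figure D4:**
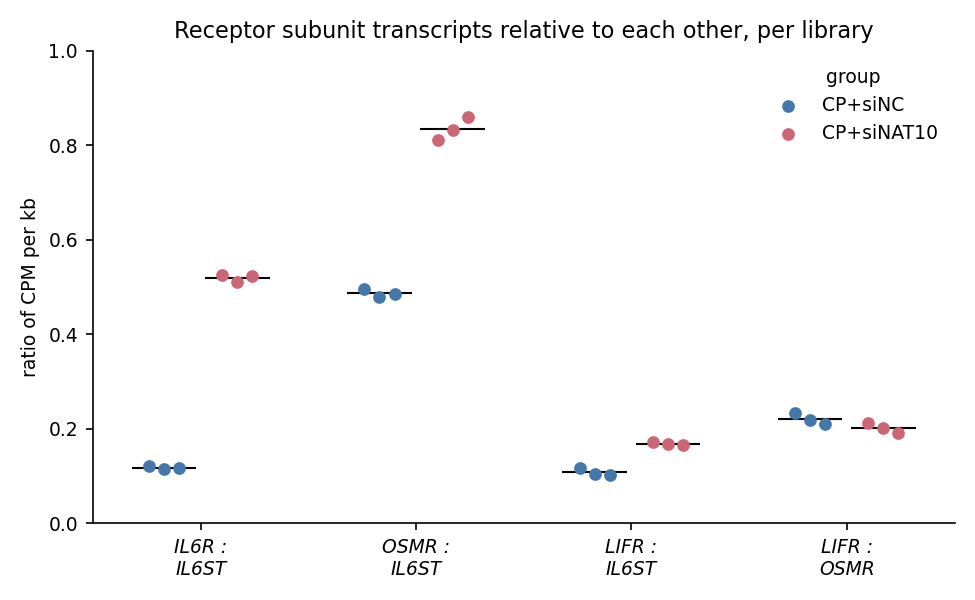
Ratio of CPM per kb between pairs of receptor chains (vertical axis from 0) in each of the 3 CP+siNC (blue) and 3 CP+siNAT10 libraries (red), with the group mean as a line. IL6R to IL6ST rose from a mean of 0.118 to 0.520, and LIFR to OSMR overlapped between the groups.

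Shedding of receptors such as IL6R was represented by 6 genes of sheddases and their partners, of which 5 were tested, 2 were higher and 1 was lower, or 60% called beside 44.1% of all tested genes. ADAM17, the main protease that releases IL6R after stimulation, fell from between 27.4 and 32.1 CPM to between 20.9 and 23.8 CPM (log2 fold change -0.39 ± 0.062, SE; adjusted p = 6.40e-06, edgeR). RHBDF2, a rhomboid-like partner that brings ADAM17 to the cell surface, rose with a log2 fold change of 0.44 ± 0.104 (SE; adjusted p = 1.02e-03, edgeR). ADAM10, which also cleaves IL6R, rose by 0.17 on the log2 scale (adjusted p = 3.83e-03, edgeR), a call lost without CP+siNAT10 replicate 2 (log2 fold change 0.12). The median of the 5 genes was -0.021. Soluble receptor was not measured.

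Signalling downstream of the receptors was followed with STAT3 and 15 further JAK-STAT genes. STAT3 had 72.8, 74.5 and 74.5 CPM in CP+siNC and 64.9, 68.2 and 68.1 CPM in CP+siNAT10. The groups did not overlap, and 90.8% of the control level was left (log2 fold change -0.14 ± 0.039, SE; adjusted p = 4.64e-03, edgeR). This was the smallest change in size among the 8 members past the threshold. Counts of STAT3 mRNA do not show its phosphorylation, which was not measured here.

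Of the 15 JAK-STAT genes, all were tested, 5 were higher, 3 were lower and 7 were not called, or 53.3% called beside 44.1% of all tested genes, and their median log2 fold change was -0.078. JAK1, the kinase most needed for signals through IL6ST, rose from between 151 and 159 CPM to between 213 and 225 CPM (log2 fold change 0.50 ± 0.034, SE; adjusted p = 1.57e-12, edgeR). TYK2 rose by 0.28 and PTPN11, the phosphatase that links IL6ST to the MAP kinase pathway, by 0.23 on the log2 scale. JAK2 was at 5.47 to 5.84 CPM and 4.89 to 5.56 CPM, with an adjusted p of 0.415 (edgeR). The transcription factor STAT5B and the adaptor GAB1 rose by 0.42 and 0.29 on the log2 scale, the latter a call lost without CP+siNC replicate 1 (0.25) and with DESeq2. STAT2, which carries interferon signals, had a log2 fold change of -0.21, and the adaptor SHC1 had -0.28. The kinase genes JAK1 and TYK2 and the gene of STAT3 thus changed in opposite directions.

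SOCS3, the feedback inhibitor, had 15.8, 19.2 and 18.5 CPM in CP+siNC and 20.5, 19.4 and 20.6 CPM in CP+siNAT10. The groups did not overlap, but the highest CP+siNC library was only slightly below the lowest CP+siNAT10 library. The log2 fold change was 0.17 ± 0.068 (SE; adjusted p = 0.0391, edgeR). Without CP+siNC replicate 1, the lowest library, it was 0.095 (adjusted p = 0.306 in edgeR, the highest of 14 alternatives, the lowest being 0.0161), and the call was also lost, at a similar log2 fold change, with DESeq2 (0.17) and without CP+siNAT10 replicate 1 (0.16) or 3 (0.16).

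Of 17 other negative regulators of the pathway, 16 were tested, 4 were higher and 6 were lower, with a median log2 fold change of -0.049. The 4 include PTPRC, which passed the filter only through CP+siNAT10, and without it 3 of 15 were higher. PTPN1, a phosphatase of JAK2 and TYK2, fell from between 178 and 189 CPM to between 136 and 138 CPM (log2 fold change -0.41 ± 0.034, SE; adjusted p = 5.42e-11, edgeR). SOCS2 and PDLIM2, an E3 ligase component and an adaptor that promote degradation of signalling proteins, had log2 fold changes of -0.46 and -0.42. The PIAS genes, which encode SUMO ligases, moved both ways. PIAS1, PIAS2 and PIAS4 rose by 0.18, 0.21 and 0.17 on the log2 scale, and PIAS3, known as an inhibitor of STAT3 and named here after its values were seen, fell by 0.31 (adjusted p = 7.66e-06, edgeR). The calls of PIAS1, PIAS2, PIAS4, PTPRC and SOCS2 were lost with DESeq2, which left 0 genes higher and 5 lower. Without CP+siNAT10 replicate 2, 1 gene was higher and 5 were lower. Without that library the log2 fold change was 0.15 for PIAS1, 0.17 for PIAS2 and -0.43 for SOCS2, and none of these was called. PIAS1 (0.11) and SOCS2 (-0.40) also lost the call without CP+siNC replicate 2, and PIAS2 (0.18) without CP+siNC replicate 1. The other gene that was higher was PTPRC, whose 7 to 29 counts per library were given with the leukocyte markers. PTPRT, named after its values were seen, had 0 counts in every library, which allows up to 0.118 to 0.159 CPM.

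Genes known as targets of STAT3 were taken from a list of 31, of which 19 were tested, 5 were higher and 6 were lower, or 57.9% called beside 44.1% of all tested genes. VEGFA, the angiogenic growth factor, rose from between 175 and 179 CPM to between 285 and 302 CPM (log2 fold change 0.74 ± 0.034, SE; adjusted p = 2.51e-16, edgeR). The transcription factor CEBPD and the receptor TNFRSF1A rose by 0.59 and 0.46 on the log2 scale. CCND1, the D-type cyclin, fell from between 275 and 287 CPM to between 102 and 107 CPM (log2 fold change -1.41 ± 0.035, SE; adjusted p = 1.47e-22, edgeR). The adhesion molecule ICAM1 and the kinase PIM1 had log2 fold changes of -0.66 and -0.49. The median log2 fold change of the targets was -0.0095. The 12 genes not tested had at most 11 counts in any library, and most were acute-phase genes of the liver such as CRP and SAA1, which are named here after their values were seen.

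Factors upstream of IL6 were described from 2 lists. Of 12 genes of NF-kappaB and AP-1, all tested, 3 were higher and 3 were lower, with a median log2 fold change of 0.064. When libraries were scaled by their size only, 6 were higher and 3 were lower. RELB, a subunit of the noncanonical NF-kappaB pathway, fell from between 11.8 and 14.5 CPM to between 5.37 and 6.63 CPM (log2 fold change -1.06 ± 0.099, SE; adjusted p = 5.95e-10, edgeR). NFKB2, its usual partner, and NFKBIA, an inhibitor that NF-kappaB itself induces, had log2 fold changes of -0.48 and -0.47. The AP-1 subunits JUND and FOSL1 rose by 0.33 and 0.27 on the log2 scale, and NFKBIZ, a nuclear cofactor for IL6 transcription, rose by 0.11, a call lost without CP+siNC replicate 2 (0.077). JUNB is also an AP-1 subunit but was placed in the list of STAT3 targets. Named after its values were seen, it had a log2 fold change of -0.47 (adjusted p = 2.25e-09, edgeR).

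Of 11 factors that act on the stability of IL6 mRNA, all tested, 2 were higher and 4 were lower, with a median log2 fold change of -0.040. When libraries were scaled by their size only, 3 were higher and 3 lower, and 2 were higher and 2 lower with DESeq2 and without CP+siNC replicate 1 or 2 or CP+siNAT10 replicate 1 or 2. ZFP36, which binds AU-rich elements and speeds decay, had a log2 fold change of -0.40 ± 0.093 (SE; adjusted p = 7.65e-04, edgeR). ZC3H12A, an endonuclease that cleaves IL6 mRNA, was at -0.26 (adjusted p = 0.0208, edgeR) but lost the call in 5 of 14 alternatives, with adjusted p from 3.04e-03 to 0.0985 over all of them. These 5 were DESeq2 and leaving out CP+siNC replicate 1 (log2 fold change -0.25) or 2 (-0.23) or CP+siNAT10 replicate 1 (-0.20) or 2 (-0.21). ZFP36L2, a relative of ZFP36 named after its values were seen, was at -0.26 (adjusted p = 0.0397, edgeR), but its groups overlapped and its call was lost in 7 of 14 alternatives, among them all those that lost ZC3H12A. Leaving out CP+siNC replicate 1 or 2 gave it a log2 fold change of -0.20 or -0.29, and leaving out CP+siNAT10 replicate 1 or 2 gave -0.23 or -0.18. RC3H2, a relative of the decay factor roquin, was at -0.13, while the decay factor KHSRP and N4BP1 rose by 0.13 and 0.28 on the log2 scale. IL6 thus fell together with some genes of factors that promote and some that limit its expression, and their part in its fall was not tested. The shares called among the negative regulators (62.5%, or 60% without PTPRC), the genes of NF-kappaB and AP-1 (50%) and the stability factors (54.5%) stand beside the same 44.1% of all tested genes. That background includes genes with low counts. At a minimum count of 50, 8185 of 14775 tested genes were called, a larger share. A share above 44.1% in any of the lists was therefore not read as an excess.

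Several members share their locus with other rows of the table, and whether the authors' counting used strand is not given in the sources used here, although the library kit kept strand. STEAP1B, on the strand opposite to IL6, shared 46 exon bases with it in GENCODE 29, had 211 to 299 counts per library and was itself lower (log2 fold change -0.52; adjusted p = 3.24e-06, edgeR). IL6-AS1, also antisense, shared 428 exon bases with IL6 and had 7 to 16 counts per library. Unless the counting used strand, reads of IL6 and of these rows cannot be told apart on the shared bases. ENSG00000262211 is antisense to IL6ST, with all its 797 exon bases inside IL6ST exons. It had 194 to 281 counts and was also lower (log2 fold change -0.49, adjusted p = 1.05e-05, edgeR). Unless the counting used strand, its counts cannot be told apart from reads of IL6ST, so its change is not a separate result. ENSG00000264281, a row of 78 bases on the same strand as that antisense row, had 206 to 295 counts and a log2 fold change of -0.26, a call lost with DESeq2 and without CP+siNC replicate 2 (-0.19) or CP+siNAT10 replicate 1 (-0.20). ENSG00000249236 had 0 to 2 counts.

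Rows at the other shared loci were LIF-AS2, LIF-AS1, LIFR-AS1, MIR3650, RICTOR, PSMD8P1 and IL6R-AS1, and how far any of them affects a member's counts was not tested. LIF-AS2 shared 175 exon bases with LIF and had 203 to 311 counts, with a log2 fold change of -0.029 (adjusted p = 0.817, edgeR) that became 0.0082 when libraries were scaled by their size only and was also above 0 without CP+siNC replicate 3 or CP+siNAT10 replicate 1 or 2. RICTOR shared 229 exon bases with OSMR on the opposite strand, had 745 to 990 counts beside the 787 to 1271 of OSMR and was not called (log2 fold change -0.044; adjusted p = 0.480, edgeR). The rows inside or across IL6R, PSMD8P1 and IL6R-AS1, had 0 to 4 counts per library beside the 187 to 755 counts of IL6R. LIFR-AS1, which shared 629 exon bases with LIFR, had at most 14 counts, LIF-AS1 had at most 13 and MIR3650 at most 1. No other row overlapped IL11, SOCS3 or STAT3.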

How the data were processed

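The deposited values are raw counts per gene that the authors made with Trimmomatic 0.36, STAR 2.5.3a and featureCounts of Subread 1.5.1 on GRCh38 from a stranded mRNA kit with molecular identifiers. The annotation release, the use of strand and whether reads with the same identifier, which the kit adds to correct for duplicates, were merged in the deposited counts are not given in the sources used here.

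In R 4.3.3, edgeR 4.0.16 (with limma 3.58.1) filtered the rows (filterByExpr, minimum count 10, minimum total 15), scaled libraries by TMM and compared the groups by the quasi-likelihood test with Benjamini-Hochberg adjustment. Each SE is the fold change on the log2 scale divided by the root of F.

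Named genes were taken from the 10 members, NAT10, rows that overlap a member, pathway genes fixed by name, the marker lists' most abundant and defining genes, and from each list up to 3 highest and 3 lowest log2 fold changes with an adjusted p under 0.05, a mean of at least 1 CPM and no overlap. The members and lists were chosen with earlier results of these data known.

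The 14 alternatives were RLE, upper quartile and library size scaling, no filter, a minimum count of 50, DESeq2 1.42.0, edgeR's exact test, the replicate number as a block and leaving out each library. Motifs were searched in Python 3.11.15, and shared exons were counted in GENCODE 29, which held 95.3% of the tested identifiers.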

Additional observations from a re-analysis of the deposited data

How the results depend on the processing

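Under the 14 alternatives 6 to 8 of the 10 members and 6652 to 8836 of all tested genes had an adjusted p under 0.05. Of 70 named genes followed through the alternatives, 50 kept their direction and side of the threshold in every alternative that tested them. Among these 50 were NAT10 (-0.85 to -0.79), IL6 (-1.01 to -0.85), IL6R (1.53 to 1.58), IL6ST, OSMR, IL11 and STAT3. CNTF lost its call in 5 of 13 and SOCS3 in 4 of 14, and CNTF was not tested at a minimum count of 50. Of the 16 negative regulators tested, 10 were called (4 higher), 5 with DESeq2 (0 higher) and 6 to 11 with 1 library left out, the lowest without CP+siNAT10 replicate 2. Of the leukocyte markers 2 were called, but 1 with DESeq2, 1 at a minimum count of 50 and 1 to 2 with 1 library left out. PTPRC rested on CP+siNAT10 replicate 2, without which its log2 fold change was 0.46 in place of 0.96.

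Reversals were confined to genes that were not called. With library size only, LIF was at 0.0036, LIF-AS2 at 0.0082 and KRT8 at 0.033, and with no filter KRT8 was at 0.0068. With 1 library left out, ranges crossed 0 for IL11RA (-0.30 to 0.018), CNTFR (-0.11 to 0.45), LIF-AS2 (-0.12 to 0.014), LUM (-0.11 to 0.13) and KRT8 (-0.020 to 0.0040). The cause was not tested. An alternative added after the data were seen, the exon lengths of GENCODE 29, moved the ratio of IL6R to IL6ST to 0.0982 in CP+siNC and 0.434 in CP+siNAT10 and left its change between groups as it was, since lengths are shared by all libraries.

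The replicate numbers gave no sign of pairing the libraries. Deviations from the group means correlated by -0.042, 0.011 and -0.14 between libraries of the same number. Between libraries of different numbers the correlations ran from -0.11 to 0.15. With 3 libraries per group such correlations are a weak check. With the replicate number as a block 8 members and 8526 genes were called. Depth limited CNTF, CNTFR, IL6-AS1 and PTPRC, with 4 to 29 counts per library. Floors cover counting error only, while intervals of fold changes also hold the spread between libraries.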
